A study of Mus musculus with 2 samples.

Results

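*Serpinb6b*, *Serpinb9*, *Serpinb6a*, *Serpinb9b* and *Serpinb1a* are 5 intracellular protease inhibitor genes of the Serpinb family, chosen by name from the 28009 genes listed in the data, which also hold 22 other Serpinb genes. Their level, the share of cells that hold their transcripts and their co-detection with *Gzmb*, the granzyme B gene, were described by tissue. The study collected IL-10-producing CD4+ T cells, sorted by their eGFP signal and with Foxp3+ cells included, from the spleen and the small intestine of IL-10eGFP Foxp3mRFP double reporter mice aged between 8 and 16 weeks. All mice had received 15 µg of anti-CD3 antibody (clone 2C11) into the peritoneum on day 0 and day 2, with the organs taken 4 h later. The intestinal cells came from the epithelial and lamina propria fractions. Both libraries were made with the 10x Genomics Chromium platform, in which each transcript molecule is counted once by a unique molecular identifier (UMI). There was 1 library per tissue and no library from untreated mice, and the number of mice pooled in a library is not given in the sources used here. Differences between the tissues were therefore differences between 2 libraries with no replicate check, and every interval given is a 95% interval that covers counting error only.

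A serpin traps a protease with an exposed reactive centre loop, which the protease cuts as if it were a substrate and by which it is then held in an inactive complex. Members of the Serpinb family lack a classical secretion signal and act mainly within the cell. Cytotoxic lymphocytes store granzymes, which are serine proteases, in granules with perforin, and granzyme B that reaches the cytosol of the cell that made it can be blocked by *Serpinb9*. *Serpinb6a* is an inhibitor of cathepsin G, and *Serpinb1a* of neutrophil elastase, cathepsin G and proteinase 3. *Serpinb6b* is a mouse paralog of *Serpinb6a*, and *Serpinb9b* is a mouse paralog of *Serpinb9*.

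All 5 genes lie on chromosome 13 of GRCm38 (GENCODE M21 annotation). *Serpinb6b* (+ strand, chromosome 13, 32965209 to 32979067), *Serpinb9* (+ strand, 33003250 to 33017957) and *Serpinb9b* (+ strand, 33027416 to 33041884) are neighbours, *Serpinb1a* (- strand, 32842092 to 32851185) lies before them and *Serpinb6a* (- strand, 33917918 to 34002794) after them. The stretch of coding sequence for the reactive centre loop is shown because it is the part by which these inhibitors differ in the protease they meet. In each gene it lies within the last exon. Capitals mark the bases between the first hinge codons and the conserved codons that end the stretch, read 5′ to 3′ on the coding strand. They also hold the alanine codons that follow in the hinge and, at their end, further codons shared by most members.
Serpinb6b: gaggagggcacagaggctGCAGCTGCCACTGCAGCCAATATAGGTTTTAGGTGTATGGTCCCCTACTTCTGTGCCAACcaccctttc
Serpinb6a: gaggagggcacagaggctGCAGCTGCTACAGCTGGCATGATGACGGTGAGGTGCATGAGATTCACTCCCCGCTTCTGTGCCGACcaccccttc
Serpinb9: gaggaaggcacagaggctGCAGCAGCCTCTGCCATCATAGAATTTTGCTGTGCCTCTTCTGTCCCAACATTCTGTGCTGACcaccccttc
Serpinb9b: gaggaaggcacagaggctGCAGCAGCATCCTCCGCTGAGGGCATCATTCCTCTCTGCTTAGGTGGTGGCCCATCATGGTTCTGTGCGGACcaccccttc
Serpinb1a: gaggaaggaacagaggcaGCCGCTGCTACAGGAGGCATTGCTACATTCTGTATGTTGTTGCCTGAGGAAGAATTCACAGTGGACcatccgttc
The printed stretches span chr13:32978201-32978287 for *Serpinb6b*, chr13:33918107-33918199 for *Serpinb6a*, chr13:33015693-33015782 for *Serpinb9*, chr13:33039796-33039894 for *Serpinb9b* and chr13:32842884-32842976 for *Serpinb1a*.

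The stretch shown was less alike than the whole coding sequence only in the pairs closest in coding sequence. *Serpinb9* and *Serpinb9b* shared 85.3% of their aligned coding bases but 70.7% of the stretch shown, and *Serpinb6b* and *Serpinb6a* shared 81.2% of coding bases and 74.2% of the stretch. In every other pair of members the stretch was the more alike part. *Serpinb6b* and *Serpinb9*, for example, shared 66.3% of coding bases and 72.5% of the stretch. The part in capitals measured 60 bases in *Serpinb6b*, 63 in *Serpinb9*, 66 in both *Serpinb6a* and *Serpinb1a*, and 72 in *Serpinb9b*. Exact sharing, which bears on the assignment of reads, was counted over whole transcripts. The assignment itself was not examined. *Serpinb6b* and *Serpinb6a* had 8 stretches of 50 bases in common, *Serpinb9* and *Serpinb9b* 13, and the largest overlaps were those of *Serpinb6b* with *Serpinb6c* (44) and of *Serpinb1a* with *Serpinb1c* (46) and *Serpinb1b* (44). The overlap with *Serpinb1c* made up 2.02% of the 2277 such stretches of *Serpinb1a*. *Serpinb6a* overlaps *Ripk1* and *Nqo2* on the opposite strand, and *Serpinb9b* overlaps *Gm36099* on the opposite strand, so that their counts are less certain because the strand setting of the counting is not given in the sources used here.

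The small intestine library held 1474 barcodes and the spleen library 1738, with no barcode in both. After cells of poor quality and G2/M cells were left out, 1277 intestinal and 1468 splenic cells remained, at a median of 3696 and 5398 UMIs per cell. Levels are given as counts per 1000000 UMIs summed over these cells (CPM), and shares of cells were taken after each cell was thinned at random to 2000 UMIs, which kept 1170 intestinal and 1445 splenic cells. The CD4 T cell list (4 genes) was detected at 3 or more UMIs in 99.4% of intestinal and 99.6% of splenic cells. It includes CD3 genes, which CD8 T cells share, so it does not separate CD4 from CD8 T cells. The CD8 list (*Cd8a* and *Cd8b1*) reached 3 or more UMIs in 134 intestinal cells (10.5%) and 4 splenic cells (0.272%). Markers of neutrophils, a main source of *Serpinb1a*, were at or near 0. In the intestine 4 of 5 neutrophil genes (*Elane* and *Mpo* included) had no UMI and the list summed to 1 UMI, and in the spleen *Elane* and *Mpo* had no UMI and the list summed to 22 UMIs. Of 6 mast cell genes, 5 were at 0 in both tissues.

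*Serpinb6b* was the most abundant Serpinb gene in both tissues. On the scale of UMIs, which count molecules whatever their length, it took 65.5% of all Serpinb UMIs of the intestinal cells and 57.9% of those of the splenic cells, followed by *Serpinb9* with 19.5% and 17.3%, *Serpinb1a* with 9.28% and 16.2%, *Serpinb6a* with 5.12% and 7.50%, and *Serpinb9b* with 0.207% and 0.247%. The order of the members was thus the same in both tissues, with *Serpinb9* and *Serpinb1a* close to each other in the spleen, where their level intervals overlapped. Of the other 22 Serpinb genes, 20 had no UMI in either library, *Serpinb1b* had 49 UMIs and *Serpinb5* had 8.

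All 5 members had a higher level in the small intestine than in the spleen. The 4 members with at least 50 UMIs over both libraries were at least 2-fold higher in the small intestine, a size that 10.4% of all 9032 genes with as many UMIs reached in this direction. The median log2 difference of these 4 members was 2.29, against -0.02 over all genes.
*Serpinb9*, the granzyme B inhibitor, stood at 336.6 CPM in the small intestine (interval 321 to 353) and 53.5 CPM in the spleen (48.9 to 58.5), which is 6.29-fold (5.68 to 6.97). *Serpinb6b* stood at 1132 CPM (1102 to 1161) and 179.8 CPM (171 to 189), which is 6.29-fold as well (5.96 to 6.65). The intervals of these 2 ratios overlapped.
*Serpinb6a*, the cathepsin G inhibitor, differed less, with 88.4 CPM (80.4 to 97.0) and 23.3 CPM (20.3 to 26.6), or 3.80-fold (3.22 to 4.49). *Serpinb1a*, the elastase inhibitor, had 160.2 CPM (149 to 172) and 50.2 CPM (45.7 to 55.0), or 3.19-fold (2.84 to 3.59). *Serpinb9b* had 18 intestinal and 7 splenic UMIs, and its ratio of 4.68 had an interval from 1.86 to 13.2.

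**Figure D1:**
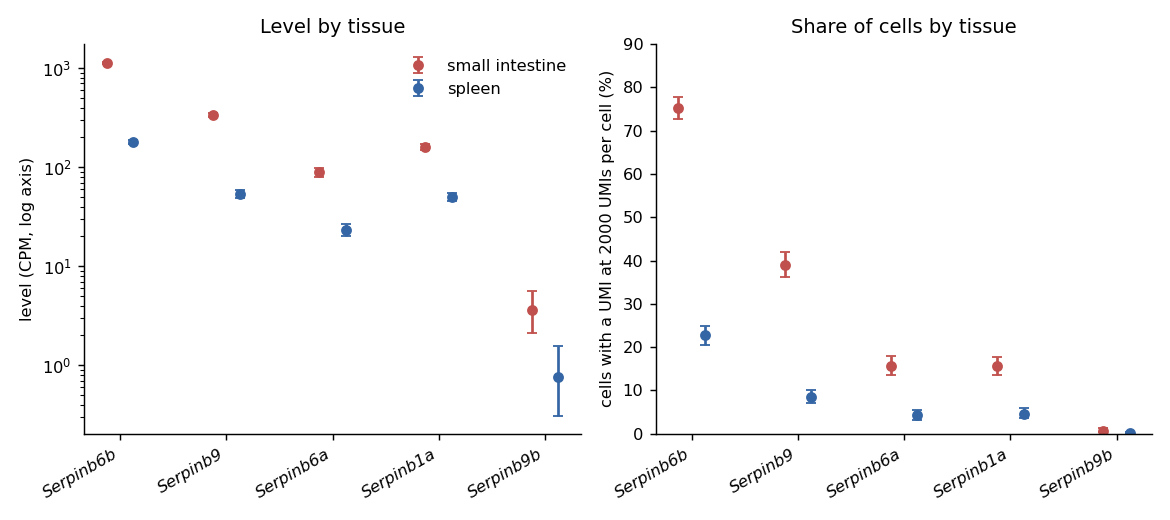
Level of the 5 Serpinb genes (left, CPM on a log axis, with exact Poisson intervals) and share of cells with a UMI after thinning to 2000 UMIs (right, percent, with exact binomial intervals) in the small intestine and spleen libraries. Each gene is higher in the small intestine, from 1132 against 179.8 CPM for *Serpinb6b* to 3.58 against 0.765 CPM for *Serpinb9b*.

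*Gzmb* and *Gzma* differed more between the tissues than the 5 members did. *Gzmb* had 12559 CPM in the small intestine and 1043 CPM in the spleen, a log2 difference of 3.59, and *Gzma*, which encodes granzyme A, had 25690 and 51.8 CPM, a log2 difference of 8.95. Of the 14 granzyme and granule genes with at least 50 UMIs, 6 were at least 2-fold higher in the small intestine, none in the spleen, and the list median log2 difference was 0.40. The 6 were *Gzma*, *Gzmb*, *Gzmk*, the perforin gene *Prf1*, *Nkg7* and *Fasl*. Other granule genes did not reach 2-fold, as *Srgn*, the granule proteoglycan serglycin, had 2412 and 2762 CPM, and *Rab27a*, which docks granules, 50.3 and 62.7 CPM.
None of 5 cystatin, Timp and Spint genes with at least 50 UMIs reached 2-fold, and *Cst7*, the cystatin of cytotoxic cells, had 168.7 and 167.4 CPM. Among the other Serpin genes with 50 UMIs, *Serpine2* was higher in the small intestine (63.0 against 0.983 CPM), *Serpini1*, *Serpinf1* and *Serpina3f* were at least 2-fold higher in the spleen, where 13.6% of all genes were, and *Serpina3g*, a further intracellular serpin of T cells, had 118.2 and 208.7 CPM. Of 11 other proteases with 50 UMIs, *Ctsl* and *Ctsw* were at least 2-fold higher in the small intestine, and *Ctsz* and *Lgmn* in the spleen.

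The share of cells with a transcript followed the levels. *Serpinb6b* was found in 880 of 1170 thinned intestinal cells (75.2%) and in 328 of 1445 splenic cells (22.7%), a difference of 52.5 percentage points (49.1 to 55.7). *Serpinb9* was found in 39.1% and 8.58% of cells, a difference of 30.5 points (27.3 to 33.6). *Serpinb6a* and *Serpinb1a* had almost the same shares as each other within each tissue, 15.6% and 15.6% in the small intestine and 4.22% and 4.64% in the spleen.
*Serpinb6a* and *Serpinb1a* were nonetheless spread differently over the cells. *Serpinb6a* UMIs were scattered singly, with 2 or more in 2.22% of intestinal cells and at most 3 in any thinned cell, and the variance of its counts was 1.14 times the mean. *Serpinb1a* came in larger numbers per cell, with 2 or more UMIs in 6.67% of intestinal cells, up to 9 in a cell and a variance of 2.62 times the mean. In the spleen, the variance over the mean was 1.14 for *Serpinb6a* and 2.66 for *Serpinb1a*. *Serpinb9b* was found in 8 intestinal and 2 splenic cells.
Without thinning, *Serpinb6b* was found in 82.4% of 1277 intestinal and 40.1% of 1468 splenic cells, *Serpinb9* in 52.0% and 18.2%, *Serpinb6a* in 24.2% and 11.5%, and *Serpinb1a* in 21.7% and 9.06%.

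*Gzmb* was found in 1120 of the 1170 thinned intestinal cells (95.7%) and in 416 of the 1445 splenic cells (28.8%). Almost every intestinal cell with a serpin therefore also held *Gzmb*, 97.5% of the cells with *Serpinb6b* and 98.9% of those with *Serpinb9*, against 95.7% of all cells. In the spleen, 49.7% of the cells with *Serpinb6b* and 50.8% of those with *Serpinb9* held *Gzmb*, against 28.8% of all cells. Only 50 intestinal cells had no *Gzmb* UMI, which limits the contrast there, and free RNA in the droplets can leave single *Gzmb* UMIs in cells that do not express the gene.
In the spleen, *Serpinb6b* was found in 39.2% of 416 cells with *Gzmb* and 16.04% of 1029 cells without, a difference of 23.1 points (18.0 to 28.4). *Serpinb9* was found in 15.1% and 5.93%, a difference of 9.22 points (5.70 to 13.2). In cell numbers, 163 splenic cells held both *Serpinb6b* and *Gzmb*, where the product of the separate shares gives 94.4, and 63 held both *Serpinb9* and *Gzmb*, where the product gives 35.7.
In the small intestine, *Serpinb6b* was found in 76.6% of the cells with *Gzmb* and 44.0% of those without, a difference of 32.6 points (18.7 to 45.7). For *Serpinb9* the shares were 40.4% and 10.0%, a difference of 30.4 points (18.6 to 36.7), which was 12.1 points (3.15 to 18.2) when cells were thinned to 1000 UMIs. The ratio of shares was thus 1.74 for *Serpinb6b* and 4.04 for *Serpinb9* in the small intestine, and 2.44 and 2.55 in the spleen. In the small intestine, 18.7% of 4287 genes found in at least 5% of cells had a ratio of 1.5 or more, and in the spleen 4.86% of 4255 genes. *Serpinb6b* and *Serpinb9* passed it in both tissues, as 2 of the 4 members found in at least 5% of intestinal cells and 2 of the 2 in the spleen. With 5 or more *Gzmb* UMIs as the criterion, the ratios were 1.78 for *Serpinb6b* and 2.47 for *Serpinb9* in the small intestine, where 8.14% of genes reached 1.5, and 2.71 and 2.40 in the spleen, where 7.26% did. At 1 or more *Gzmb* UMIs, *Serpinb9* stood at rank 126 and *Serpinb6b* at rank 577 in the small intestine, and at ranks 13 and 15 in the spleen.

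*Serpinb6a* showed no such difference beyond counting error, with 15.7% and 14.0% of intestinal cells with and without *Gzmb* (difference 1.71 points, -10.6 to 9.11) and 5.05% and 3.89% of splenic cells (1.16 points, -1.04 to 3.90). *Serpinb1a* went in opposite directions. In the spleen it was found in 7.21% of cells with *Gzmb* and 3.60% of those without (3.62 points, 1.12 to 6.67), and in the small intestine in 15.2% and 24.0% (-8.82 points, -22.4 to 1.13), where the interval includes 0. This intestinal value depended on the random thinning, since 5 further seeds gave between -13.0 and -18.7 points, each with an interval below 0. In the spleen the same 5 seeds gave between 5.47 and 7.23 points, each above the main value. With at least 5 *Gzmb* UMIs as the criterion, the intestinal difference for *Serpinb1a* was -9.56 points (-16.7 to -3.39) and the splenic one 2.38 points (-0.818 to 7.41). *Serpinb9b*, with 7 intestinal cells with *Gzmb* and 1 without, and 2 splenic cells with *Gzmb*, was too rare to compare.

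Over 4 ranges of *Gzmb*, the shares of *Serpinb6b* and *Serpinb9* climbed with the number of *Gzmb* UMIs in both tissues. The ranges were no *Gzmb* UMI, 1 to 4, 5 to 19, and 20 or more. They held 50, 123, 376 and 621 intestinal cells and 1029, 253, 131 and 32 splenic cells, so that the ends of the scale were thinly filled in opposite tissues. Before thinning, splenic cells without *Gzmb* had a median of 5080 UMIs and those in the other ranges 6642 to 7322, whereas intestinal medians lay between 3608 and 4001.
*Serpinb6b* was found in 44.0%, 45.5%, 73.9% and 84.4% of the intestinal cells in these ranges, and in 16.04%, 31.2%, 45.8% and 75.0% of the splenic cells. *Serpinb9* was found in 10.0%, 20.3%, 37.0% and 46.4% of the intestinal cells and in 5.93%, 13.4%, 17.6% and 18.8% of the splenic cells. The intervals of neighbouring ranges overlapped at the first step of both genes in the small intestine, at the step from 1 to 4 to 5 to 19 of both genes in the spleen, and at the last step of splenic *Serpinb9*, and not at the other steps.
*Serpinb6a* stayed between 14.0% and 19.5% in the small intestine and between 3.13% and 5.34% in the spleen. *Serpinb1a* was found in 24.0%, 23.6%, 15.4% and 13.4% of intestinal cells, in falling order, and in 3.60%, 7.51%, 4.58% and 15.6% of splenic cells, with no steady order.

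**Figure D2:**
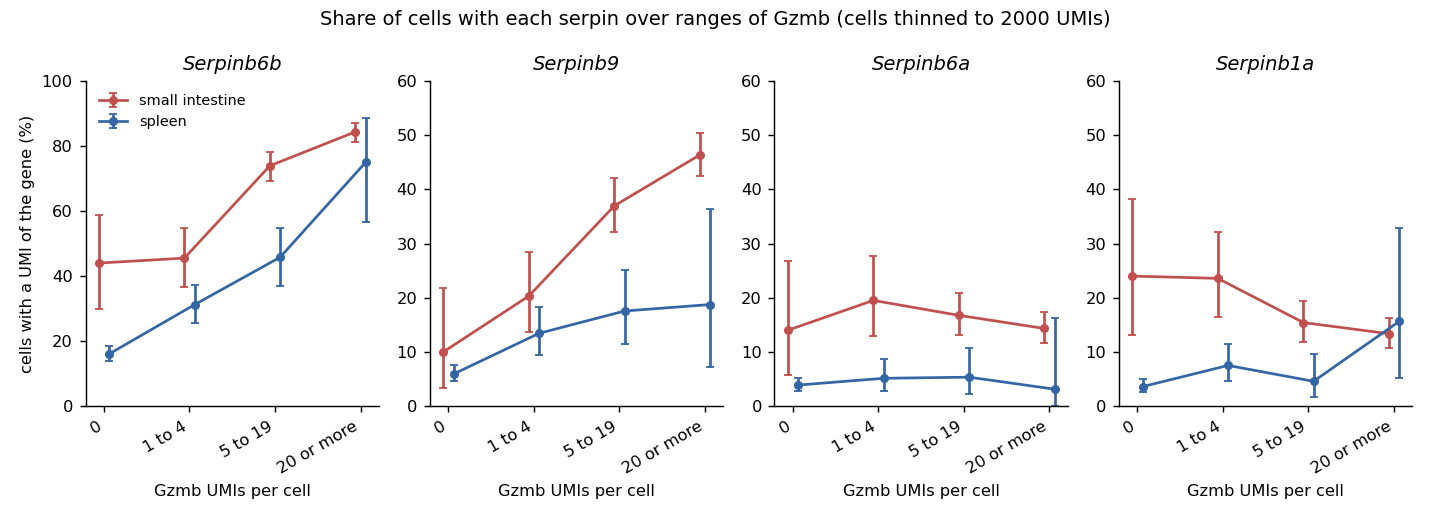
Share of cells with a UMI of *Serpinb6b*, *Serpinb9*, *Serpinb6a* and *Serpinb1a* (percent, exact binomial intervals) over ranges of *Gzmb* UMIs per cell, in small intestine and spleen cells thinned to 2000 UMIs. *Serpinb6b* goes from 44.0% to 84.4% in the small intestine and from 16.04% to 75.0% in the spleen, while *Serpinb6a* shows no order.

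The tissues were also compared within a range of *Gzmb*. *Serpinb6b* was found more often in intestinal than in splenic cells by 28.0 points at no *Gzmb* UMI (14.9 to 41.8), by 14.3 points at 1 to 4 (3.90 to 24.6) and by 28.1 points at 5 to 19 (18.4 to 37.4). At 20 or more, the difference was 9.38 points (-2.76 to 26.7), which includes 0. For *Serpinb9* the gap was within counting error in the lower ranges, 4.07 points (-1.81 to 15.5) and 6.89 points (-0.896 to 15.6), and was 19.4 (10.6 to 26.9) and 27.6 points (10.6 to 38.2) in the upper ranges. *Serpinb6a* was found more often in the small intestine by between 10.1 and 14.4 points in every range, with an interval above 0 in all but the highest. *Serpinb1a* was found more often by 20.4, 16.1 and 10.8 points in the 3 lower ranges, and by -2.26 points (-18.6 to 6.97) in the highest. The higher shares in the small intestine were thus also present within these ranges, except where named. The ranges are wide, and *Gzmb* counts within a range were not matched between the tissues.

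Graph clusters were made in each tissue without the Serpinb and granule genes, so that the members did not shape them, and gave 7 clusters per tissue. In the spleen, cluster 1 (301 cells) was Tfh-like, cluster 2 (256) Foxp3 Treg-like, cluster 3 (222) naive or central memory-like, cluster 4 (220) cycling-like and cluster 6 (160) TR1-like or cytotoxic-like, led by *Ccl5*, *Ccl3* and *Ccl4*. Cluster 5 (172), led by *Lgals3*, *Ifitm1* and *Il4*, and cluster 7 (137), led by *Cnn3* and *Bach2*, were not named. Intestinal cluster 7 (125 cells, led by *Il17f* and *Il17a*) also held 28 *Foxp3* UMIs, 20.9 times the level of the other intestinal cells. All 9 listed cycling genes were higher there as well. It was the only small intestine cluster to be named, as Th17-like. The others were led by *Csf1* and *Ifitm1* (cluster 1, 323 cells), *Cd74* and *Cxcl13* (cluster 2, 261), *Ccl3* and *Ccl4* (cluster 3, 166), *Penk* and *Ramp3* (cluster 4, 146), *Cd8b1* and *Cd8a* (cluster 5, 130) and *Klrc1* and *Klrd1* (cluster 6, 126). Cluster 2 was also the shallowest, at a median of 2554 UMIs, and its leading genes *Cd74*, *H2-Aa* and *H2-Ab1* are markers of B cells and other antigen-presenting cells. In the whole intestinal library, 6 of 1277 cells held 3 or more UMIs of the 5 B cell genes, and the 4 cells with 10 or more held 4 UMIs of *Serpinb6b* (275.4 CPM, 75.0 to 705), none of *Serpinb9* and 56 of *Gzmb* (3855 CPM). This count covers B cell genes only. A source of *Cxcl13*, *Clu* and *Mfge8*, which also led cluster 2, was not looked for.

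Splenic *Serpinb6b* and *Serpinb9* were highest in the TR1-like or cytotoxic-like cluster. *Serpinb6b* had 519.7 CPM there (474 to 568), 355.0 CPM in cluster 5, 193.4 CPM in the Foxp3 Treg-like cluster, 122.4 CPM in the cycling-like cluster, 79.3 CPM in the naive-like cluster, 60.3 CPM in the Tfh-like cluster and 32.1 CPM in cluster 7. The intervals of the Tfh-like (47.9 to 74.8) and naive-like (62.4 to 99.4) clusters overlapped, and those of the other neighbours in this order did not.
*Serpinb9* had 182.2 CPM in the TR1-like or cytotoxic-like cluster (156 to 212), 89.5 CPM in cluster 5, 54.0 CPM in the Foxp3 Treg-like cluster and 24.3 to 28.1 CPM in the cycling-like, Tfh-like and naive-like clusters, which were not distinguishable, and 11.4 CPM in cluster 7. The highest cluster was thus 16.2-fold above the lowest for *Serpinb6b* and 15.99-fold for *Serpinb9*. In the naive-like cluster, where *Gzmb* had 26.4 CPM, *Serpinb6b* was found in 12.1% of 214 thinned cells, and in cluster 7 in 2.96% of 135. These shares were below the 52.6% in the TR1-like or cytotoxic-like cluster and the 39.2% in cluster 5. The shares of the naive-like cluster and of cluster 7 differed from each other. No cluster of either library was known to lack *Serpinb6b* or *Serpinb9*, so no background was set.

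In the small intestine, the range was narrower and the order of the clusters was the same for *Serpinb6b* and *Serpinb9*. *Serpinb6b* had 1713 CPM in cluster 4 (1608 to 1823), 1478 in cluster 1, 1342 in cluster 6, 1196 in cluster 5, 745.8 in cluster 2, 713.9 in cluster 3 and 478.9 in the Th17-like cluster (425 to 538). *Serpinb9* had 481.5 CPM in cluster 4, 470.1 in cluster 1, 430.6 in cluster 6, 330.8 in cluster 5, 252.1 in cluster 2, 185.7 in cluster 3 and 94.1 in the Th17-like cluster. The intervals of *Serpinb9* overlapped between all neighbours in this order except cluster 3 and the Th17-like cluster, and those of *Serpinb6b* overlapped between clusters 1 and 6, 6 and 5, and 2 and 3. The Th17-like cluster was lowest for both, at 0.393 times the *Serpinb6b* level and 0.255 times the *Serpinb9* level of the other intestinal cells.
The lowest intestinal cluster of *Serpinb6b* was close to the highest splenic one, at 478.9 and 519.7 CPM. The 2 inhibitors did not simply follow *Gzmb* among intestinal clusters. *Gzmb* was highest in cluster 5, at 18730 CPM, where *Serpinb6b* came only after clusters 4, 1 and 6. Cluster 3 had 14151 CPM of *Gzmb* with 713.9 CPM of *Serpinb6b*, whereas cluster 4 had 11615 CPM of *Gzmb* with 1713 CPM of *Serpinb6b*. *Gzma* was lower in cluster 3 than in cluster 4, at 16760 and 33342 CPM, as *Serpinb6b* was. It too was highest in cluster 5, at 48168 CPM.

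**Figure D3:**
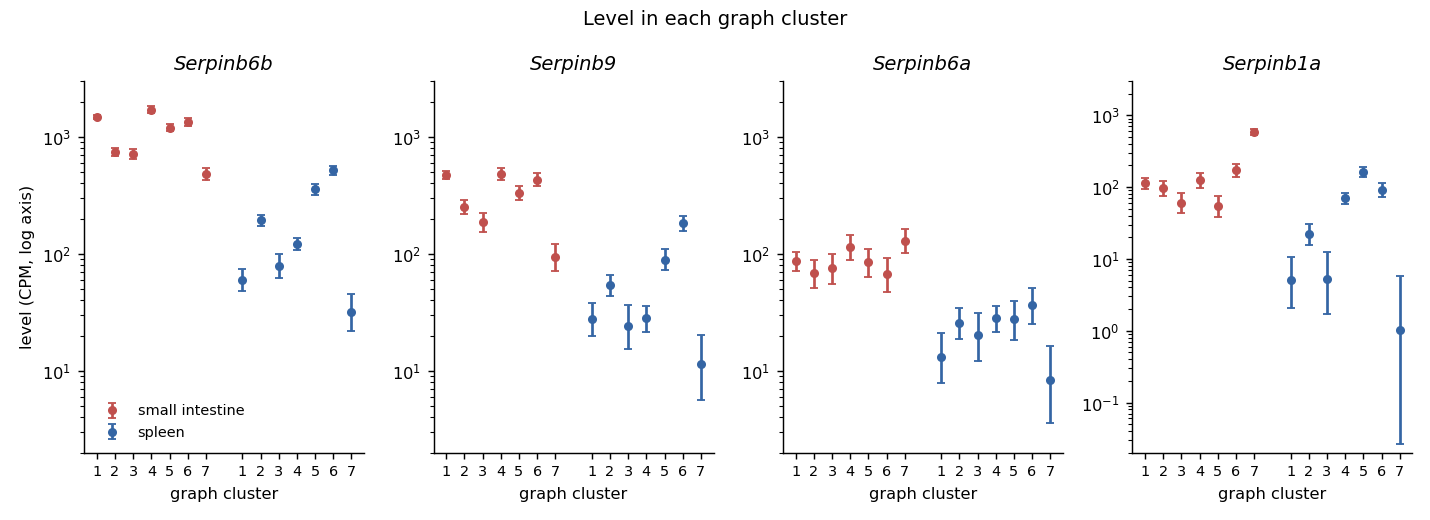
Level of *Serpinb6b*, *Serpinb9*, *Serpinb6a* and *Serpinb1a* (CPM on a log axis, exact Poisson intervals, the axis of *Serpinb1a* reaching lower) in the 7 graph clusters of the small intestine (left of each panel) and the 7 of the spleen (right). Among intestinal clusters *Serpinb6b* and *Serpinb9* are lowest in cluster 7, among splenic clusters they are highest in cluster 6, and *Serpinb1a* is highest of all 14 clusters in intestinal cluster 7, at 588.2 CPM.

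*Serpinb1a* had another distribution. In the small intestine it was highest in the Th17-like cluster, at 588.2 CPM (528 to 653), followed by 173.4 CPM in cluster 6 and 54.4 to 123.8 CPM in the other clusters. The level in the Th17-like cluster was 5.72 times that in the other intestinal cells (4.96 to 6.59), and *Serpinb1a* was found in 50.4% of its 117 thinned cells. This size depended on the clustering, as the log2 ratio of the highest intestinal cluster over the other cells was 2.52 here and 1.57 (1.37 to 1.77) with 20 neighbours in the graph. In the spleen, *Serpinb1a* was highest in cluster 5, at 163.7 CPM (140 to 190), with 91.1 CPM in the TR1-like or cytotoxic-like cluster, 69.5 CPM in the cycling-like cluster and 22.1 CPM in the Foxp3 Treg-like cluster. It had 7 UMIs in the Tfh-like cluster, 5 in the naive-like cluster and 1 in cluster 7.
Cells with an *Il17a* UMI, the signature cytokine of Th17 cells, had more *Serpinb1a* than the others in both tissues. The 52 such intestinal cells had 736.7 CPM of *Serpinb1a* (640 to 843) against 125.5 CPM in the other cells, and the 14 such splenic cells had 220.5 CPM (149 to 315) against 47.6 CPM. The splenic value rests on 30 *Serpinb1a* UMIs. In the spleen, 100 *Il17a* UMIs lay in the cycling-like cluster, against at most 3 in any other cluster. For *Serpinb6b* the direction was opposite, with 389.4 CPM against 1176 CPM in the small intestine and 95.5 CPM (50.9 to 163) against 181.0 CPM in the spleen. These splits were chosen after the cluster values had been seen.

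*Serpinb6a* varied least among the members. Its intestinal levels lay between 67.1 CPM in cluster 6 and 129.4 CPM in the Th17-like cluster, a 1.93-fold range, and the splenic ones between 8.28 CPM in cluster 7 and 36.4 CPM in the TR1-like or cytotoxic-like cluster, a 4.40-fold range. Of the neighbours in order, none differed beyond its interval in the small intestine. The 5 splenic UMIs of *Serpinb9b* in the TR1-like or cytotoxic-like cluster made up 5 of its 7 in that tissue, and it had no UMI in the intestinal Th17-like cluster.

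Across the 14 clusters, the gene with the profile most like that of *Serpinb6b* among 6079 genes with at least 200 UMIs was *Serpinb9* (Pearson r of log2(CPM + 10) = 0.98), and the same held for *Serpinb9*. The next were *Lilr4b* (0.98) and *Dusp5* (0.97) for *Serpinb6b*, and *Lamb3* (0.96) and *Sh2d2a* (0.96) for *Serpinb9*. These clusters come from 2 libraries, and the gap between the tissues adds to each r. Within a tissue (7 clusters each), r of *Serpinb6b* with *Serpinb9* was 0.97 among intestinal and 0.97 among splenic clusters, whereas r of *Serpinb6b* with *Lilr4b* was 0.76 and 0.99. The genes most like *Serpinb1a* were *Itpripl1* (0.95), *Stard3nl* (0.92) and *Fam177a* (0.90). Those most like *Serpinb6a* included *Mbd2* (0.97) and *Mier1* (0.96). Within the small intestine and spleen, r was 0.69 and 0.94 for *Mbd2*, and 0.245 and 0.88 for *Mier1*. Those most like *Serpinb9b* were *Serpinb9* (0.84), *Lamb3* (0.83) and *Adora2a* (0.83). The *Serpinb9b* profile rests on 25 UMIs and at most 8.60 CPM in a cluster, below the 10 CPM added before the log, so these values carry little weight.
With *Gzmb*, r of *Serpinb6b* was 0.72 among intestinal and 0.90 among splenic clusters, and r of *Serpinb1a* was -0.81 and 0.86. *Serpinb6a* had r = -0.63 and 0.83 with *Gzmb*, and *Serpinb9* 0.75 and 0.82. With *Gzma*, r of *Serpinb6b* was 0.83 and 0.76, and r of *Serpinb9* was 0.86 and 0.84. These values describe 7 clusters of a single library each.

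**Figure D4:**
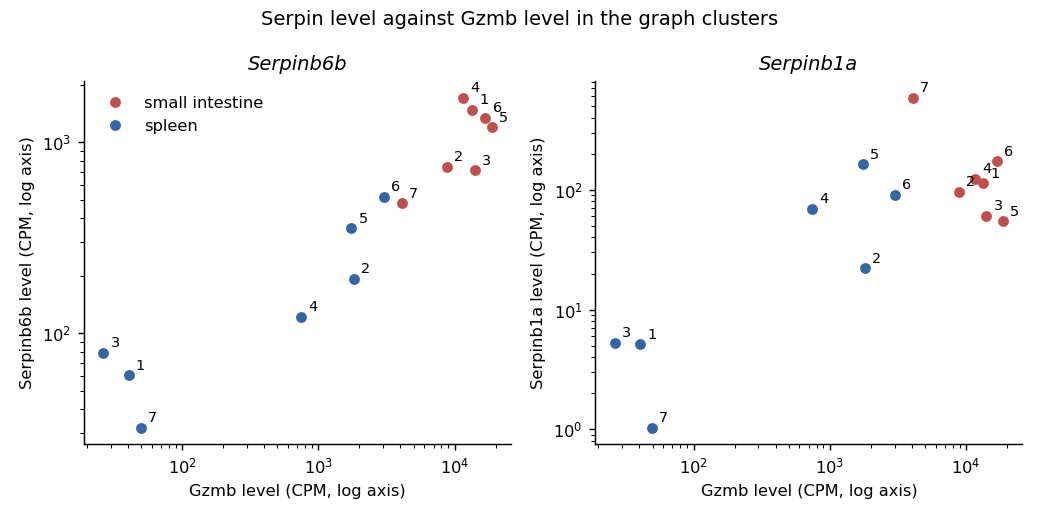
Level of *Serpinb6b* (left) and *Serpinb1a* (right) against the level of *Gzmb* in each graph cluster (CPM, both axes log, points labelled by cluster number) in small intestine and spleen. In the spleen both serpins are lowest in the clusters with the least *Gzmb*, and in the small intestine *Serpinb1a* is highest in cluster 7, where *Gzmb* is lowest at 4082 CPM.

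Within a cluster, cells were split by *Gzmb* again, from 1 UMI in the spleen and from 20 UMIs in the small intestine, where nearly every cell holds some. *Serpinb6b* was found more often in the cells with more *Gzmb* in 6 of 7 clusters in each tissue, with an interval above 0 in 5 intestinal and 2 splenic clusters. In intestinal cluster 2 the shares were 80.8% and 49.6%, a difference of 31.2 points (17.5 to 42.8), and in the Th17-like cluster 73.3% of 15 cells and 42.2% of 102 cells. In the spleen they were 60.2% and 37.7% in the TR1-like or cytotoxic-like cluster (22.5 points, 5.90 to 37.3) and 54.8% and 27.6% in cluster 5 (27.2 points, 12.4 to 40.7).
The exceptions were intestinal cluster 1, at 83.2% and 88.2% (-5.00 points, -12.6 to 3.06), and the splenic cycling-like cluster, at 19.2% and 20.6% (-1.34 points, -11.7 to 10.3). *Serpinb9* was found more often in 7 intestinal and 6 splenic clusters, with an interval above 0 in 1 cluster of each tissue. For *Serpinb1a*, 4 intestinal and 3 splenic clusters had a higher share with more *Gzmb*, and no interval lay away from 0 at this number of cells. The intestinal cut of 20 UMIs differs from the 1 UMI used over the whole library. The intestinal values are therefore not set against the whole-library difference of *Serpinb1a* in that tissue. In the spleen the cut was 1 UMI in both, and *Serpinb1a* was higher in 3 of 7 clusters, each interval including 0. Over the whole splenic library the difference was 3.62 points (1.12 to 6.67). The reason for this was not tested. For *Serpinb6a*, 3 intestinal and 3 splenic clusters had a higher share with more *Gzmb*, and 1 intestinal interval lay below 0.

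Members were also found together in single cells. Of the thinned intestinal cells, 13.5% held no member, 40.4% held 1, 34.1% held 2, 10.4% held 3, 1.45% held 4, and 1 cell held all 5. Of the splenic cells, 67.6% held none, 25.3% held 1, 6.37% held 2 and 0.761% held 3. *Serpinb6b* with *Serpinb9* was the pair with the largest difference in points in each tissue. Both were found in 400 intestinal cells (product 344) and 61 splenic cells (product 28.1), and *Serpinb9* was found in 45.5% of intestinal cells with *Serpinb6b* and 19.7% of those without (25.8 points, 19.9 to 31.1). The corresponding splenic shares were 18.6% and 5.64% (13.0 points, 8.83 to 17.7). Relative to the product, this pair was not the highest in the small intestine, at 1.16 times. *Serpinb9* with *Serpinb6a* stood at 1.23 times there, with both in 88 cells (5.93 points, 1.63 to 10.4). In the spleen these values were 2.17 and 1.34 times.
*Serpinb1a* with *Serpinb6b* differed between the tissues in direction. It was found in 14.3% of intestinal cells with *Serpinb6b* and 19.3% of those without (-4.99 points, -10.4 to -0.180), and in 7.62% and 3.76% of splenic cells (3.86 points, 1.13 to 7.38). With *Serpinb9*, *Serpinb1a* was found in 15.5% and 15.6% of intestinal cells (-0.0319 points, -4.19 to 4.34). Whether the tissues differ in this was not tested.

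The reporter sort and the mixture of cells were checked against the members. Cells with an *Il10* UMI had 1163 CPM of *Serpinb6b* in the small intestine against 1030 CPM in cells without, a ratio of 1.13 (1.06 to 1.20), and 186.3 against 163.4 CPM in the spleen, a ratio of 1.14 (1.02 to 1.28). Cells with a Foxp3 UMI, 28 intestinal and 280 splenic, had less *Serpinb9* than the others, with 100.4 against 343.9 CPM and 34.9 against 59.9 CPM. The intestinal split overlaps with the Th17-like cluster, which held 28 Foxp3 UMIs against at most 6 in any other intestinal cluster. The splenic Foxp3 cells had more *Gzmb* than the others, at 1406 against 918.9 CPM, and less *Serpinb6b*, at 152.8 against 188.9 CPM. The splenic Foxp3 Treg-like cluster was not lower, at 1.01 times the *Serpinb9* level of the other splenic cells (0.798 to 1.27) and 1.10 times that of *Serpinb6b* (0.968 to 1.24). That cluster held 236 Foxp3 UMIs, and the cycling-like cluster, with 28.1 CPM of *Serpinb9*, held 168. Intestinal cells with a *Cd8b1* UMI (156 cells) had 1190 CPM of *Serpinb6b* against 1121 CPM, a ratio of 1.06 (0.989 to 1.14), and 69.5 CPM of *Serpinb1a* against 177.1 CPM.
Cells with an *Ifng* UMI, the cytokine of type 1 responses, differed by tissue. In the spleen they had 313.2 CPM of *Serpinb6b* against 154.4 CPM (ratio 2.03, 1.82 to 2.26), and in the small intestine 1197 against 1047 CPM (1.14, 1.08 to 1.21).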

How the data were processed

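IL-10+ CD4+ T cells of the spleen and of the small intestine were measured in 1 droplet library each. The deposited values are UMI counts per gene and cell barcode, for which the authors trimmed the reads with Trimmomatic and ran Cell Ranger for alignment to mm10, read filtering and UMI counting. The submitters' processing notes also name mm8, with no role, and versions and the strand setting are not given in the sources used here. Replicates do not exist, so no test was made.
From the counts, barcodes with a log UMI total or log gene number more than 3 median absolute deviations (MAD) under the median, or a mitochondrial percentage more than 3 MAD over it, were removed. Cells that cyclone put in G2/M (scran 1.30.0, 1000 iterations) were removed next. No doublet caller was run, and cells above the 95th percentile of UMIs were left out as an alternative. Levels were CPM with exact Poisson intervals, ratios had exact conditional binomial intervals, shares exact Clopper-Pearson intervals, and differences of shares Newcombe intervals (scipy 1.17.1), all at 95%. Sequencing depth was 5693395 UMIs for the small intestine and 11103530 for the spleen, and 3 UMIs over the kept cells correspond to 0.596 and 0.328 CPM.
Clusters came from a graph of 10 neighbours on 20 principal components of highly variable genes (scran, bluster 1.12.0), without the Serpinb, granzyme, Prf1, Srgn and Nkg7 genes. Loop stretches were cut from GENCODE M21 transcripts (GRCm38) with Biopython 1.88. The level ratios and their intervals were tested on simulated counts, and a planted difference of shares on simulated cells. The thinning was checked on splenic cells of these data. The other steps, clustering included, were not tested in this way.
Members and lists were chosen with earlier results of these data known. Beside the members, genes were named by rule: other Serpinb genes with 50 UMIs, Gzmb and Gzma, the 3 genes most like each member (of which 1 is not reported here), and list genes with 500 UMIs and a 2-fold difference. Serpinb1b, Serpinb5, further listed genes and leading genes of clusters were named outside this rule after their values were seen. Splits by Foxp3, Il10, Cd8b1, Ifng or Il17a UMIs and by Gzmb within clusters were added after the data were seen.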

Additional observations from a re-analysis of the deposited data

Results flagged for a closer look

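*Serpinb1a* drew attention because its share of cells moved in opposite directions with *Gzmb*. In the small intestine it was found in fewer of the cells with *Gzmb* than of those without, by -8.82 percentage points, and in the spleen in more, by 3.62 points. *Serpinb9b* did so as well, at -1.38 points in the small intestine and 0.481 points in the spleen, which rest on 8 intestinal and 2 splenic cells, and its intestinal sign was kept in 2 of 11 alternatives and turned with each of 5 further thinning seeds (0.447 to 0.627 points). The difference between the tissues was not tested for either gene. For *Serpinb1a* the intestinal interval (-22.4 to 1.13) includes 0, whereas 5 further seeds gave -13.0 to -18.7 points with intervals below 0. In the spleen these seeds gave 5.47 to 7.23 points.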

How the results depend on the processing

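Of 191 values over 28 results, 166 stayed within the counting interval of the main value and 25 left it. None of the differences with an interval away from 0 changed direction. The ratios of the highest graph cluster over the other cells could not do so, since that cluster was picked anew in each clustering. Whether the same cluster stayed highest was not checked. The tissue difference in level kept its direction for all 5 members. It lay outside the interval for *Serpinb6b*, at a log2 ratio of 2.78 without *Gzma*, *Gzmb*, *Ccl5* and mitochondrial genes and 2.51 as a mean over cells, and for *Serpinb1a*, at 1.84 as a mean over cells. Thinning to 1000 UMIs, which detects fewer molecules, gave tissue differences in share of 39.7 points for *Serpinb6b*, 20.03 for *Serpinb9*, 5.68 for *Serpinb6a* and 6.68 for *Serpinb1a*, and *Gzmb* differences of 12.1 points for intestinal *Serpinb9* and 16.7 for splenic *Serpinb6b*. With all barcodes the tissue difference of *Serpinb6a* was 8.92 points. The *Gzmb* difference of splenic *Serpinb6b* was 32.5 points from 5 *Gzmb* UMIs, and that of intestinal *Serpinb6b* 45.9 points with *Gzmb* taken from unthinned counts. The 5 further thinning seeds gave 5.47 to 7.23 points for splenic *Serpinb1a*, against 3.62 points in the main setting. Intestinal *Serpinb1a*, at -8.82 points, ranged from -18.7 to -6.86 points over 11 alternatives.
Intestinal *Serpinb9b* (8 cells) had differences of 0.627, 0.536, 0.537, 0.447 and 0.627 points with the 5 other seeds, 0.739 with all barcodes and 0.793 with unthinned *Gzmb*, and splenic *Serpinb9b* -0.101 without the cells of most UMIs. *Serpinb6a* had the same sign as in the main setting in 3 of 11 alternatives in the small intestine and 8 of 11 in the spleen. The highest intestinal cluster over the other cells had log2 ratios of 0.50 for *Serpinb6b*, 0.90 for *Serpinb9* and 1.57 for *Serpinb1a* with 20 neighbours, and 2.26 for *Serpinb1a* with all highly variable genes, against 0.70, 0.60 and 2.52 in the main setting. Except where the construction of an alternative shows it, the cause was not tested.
With 1 library per tissue, spread between mice, preparation and tissue cannot be told apart. The spleen library was 1.46 times as deep per cell, and 50 intestinal cells without *Gzmb* limit the contrast there. No paired analysis was possible because each tissue has 1 library and no test was made.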
